A study of Homo sapiens with 18 samples.

Results

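The zinc finger genes of chromosome 19 were taken as the protein-coding genes of GENCODE version 44, mapped to hg19, that lie on this chromosome and whose symbol begins with ZNF. There were 249 of them among 1480 protein-coding genes of the chromosome and 20176 of the genome, and the other 1231 genes of the chromosome served as the comparison. A peak was assigned to a gene when it shared at least 1 bp with the gene body or the 5 kb on either side. Of the 249 genes, 247 encoded at least 1 zinc finger of the C2H2 type in their reference transcript, with a median of 12 fingers and at most 36, so the label fitted nearly all members. The exceptions were the read-through genes ZNF625-ZNF20 and ZNF816-ZNF321P.

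ChIP-seq, the sequencing of DNA recovered with an antibody from cross-linked chromatin, was carried out in LNCaP, a human prostate cancer line that responds to androgen. EHMT1, tagged with V5 and expressed from an integrated tetracycline-inducible construct, was either wild type (WT) or had lysine replaced by arginine at 1 or both of 2 adjacent sites (K450R, K451R and K450RK451R), and the 4 stable lines received doxycycline at 0.5 µg/ml for 2 days. V5 and dimethylated lysine 9 of histone H3 (H3K9me2) were precipitated from each line, and endogenous EHMT1 from parental LNCaP cells that were untreated. The endogenous EHMT1 gene was left in place in the stable lines, so V5 reports the added protein alone while H3K9me2 reflects both. The 18 samples formed 9 groups of 2 replicates with 1 peak list per group, and whether a list rests on both replicates is not known, so that no value below has a replicate error and no difference between lists or gene groups was tested.

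C2H2 zinc finger proteins contact DNA through arrays of short finger modules, and in human most of their genes stand in tandem clusters, many of them on chromosome 19. A large share of these proteins carry a KRAB domain, bind transposable elements and recruit the corepressor TRIM28 with the H3K9 methyltransferase SETDB1. EHMT1 (GLP) and its partner EHMT2 (G9a) form a separate H3K9 methyltransferase complex that writes mono- and dimethylation and itself contains the zinc finger proteins WIZ and ZNF644.

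The sequence under the summits of 2 kinds of peak is shown first. The windows below reach from 100 bases before to 100 bases after the summit, on the plus strand of hg19, and none of them touches an exon of a protein-coding gene.
The ZNF728 and ZNF471 windows are promoter peaks of V5 in the K450RK451R list. They stand for the peaks without a match to the repeats Alu, L1 5′ end or SVA, and capitals mark CpG dinucleotides.
ZNF728, chr19:23185498-23185698: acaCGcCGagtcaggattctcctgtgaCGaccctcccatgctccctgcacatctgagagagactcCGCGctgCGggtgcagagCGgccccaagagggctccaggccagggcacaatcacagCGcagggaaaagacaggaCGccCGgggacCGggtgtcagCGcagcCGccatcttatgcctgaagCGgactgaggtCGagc
ZNF471, chr19:57019414-57019614: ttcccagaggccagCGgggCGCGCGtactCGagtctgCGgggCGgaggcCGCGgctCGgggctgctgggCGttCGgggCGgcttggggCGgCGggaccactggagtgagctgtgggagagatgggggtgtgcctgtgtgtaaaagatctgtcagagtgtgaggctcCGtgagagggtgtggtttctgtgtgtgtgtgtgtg
Both ZNF229 windows carry the only EHMT1 peaks found in the 249 genes, and capitals mark the bases of the deposited peak.
ZNF229, chr19:44917725-44917925: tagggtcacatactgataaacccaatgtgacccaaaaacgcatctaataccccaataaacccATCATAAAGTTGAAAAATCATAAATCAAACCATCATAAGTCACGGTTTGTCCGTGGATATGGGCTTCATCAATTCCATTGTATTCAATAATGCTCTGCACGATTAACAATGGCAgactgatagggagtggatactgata
ZNF229, chr19:44919167-44919367: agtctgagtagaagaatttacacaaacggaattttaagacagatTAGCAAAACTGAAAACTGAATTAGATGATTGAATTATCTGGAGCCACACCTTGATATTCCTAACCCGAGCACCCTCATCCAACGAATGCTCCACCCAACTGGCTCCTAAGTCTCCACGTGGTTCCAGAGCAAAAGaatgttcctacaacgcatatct

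V5 peaks near zinc finger genes came almost entirely from the K450RK451R line, but most V5 peaks of the whole genome did so too. The WT, K450R and K451R lists held 652, 637 and 860 peaks, and the K450RK451R list 14799. In the K450RK451R list 51 of 249 members had a peak (20.5%, 95% Wilson interval 15.9% to 25.9%), against 5.85% of the other genes of the chromosome (72 of 1231, 4.67% to 7.30%). No member had a peak in the WT list, where the background was 0.325%, or in the K450R list, where it was 0.244%, and a count of 0 among 249 allows a share of up to 1.205%. In the K451R list 1 member, ZNF536, had a peak, against 0.325% of the other genes. Intervals and limits here and below cover counting error only, since neighbouring genes and peaks are not independent.

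Lists of the other antibodies had few peaks at the zinc finger genes, and the H3K9me2 lists had few at the other genes of the chromosome too. Endogenous EHMT1 had peaks at 1 member, ZNF229, which is 0.402% (0.0709% to 2.24%), against 2.36% of the other genes (29 of 1231, 1.65% to 3.36%). H3K9me2 had no peak at a member in the WT line (background 0.406%) or the K450R line (0.0812%). It had a peak at 1 member in the K451R line (0.162%) and at 1 in the K450RK451R line (0.0812%), and both times this was ZNF229. In these 2 lines the member share, 0.402%, was thus above the background, but it rests on 1 gene. Of all peaks in the H3K9me2 lists, 68.8% (K451R line) to 87.5% (WT line) lay in regions where all 3 antibodies had a peak. A gene without a peak in these lists was therefore not shown to lack H3K9me2. Over all 9 lists, 197 members had no peak, 50 had peaks in 1 list, ZNF536 in 2 and ZNF229 in 3.

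The lists differ in depth and in how weak a peak they hold. Reads estimated from the background of each list ran from 8.84 M (M, mega) in the WT V5 list over 11.1 M and 14.1 M in the K450R and K451R lists to 22.7 M in the K450RK451R list, from 8.79 M to 27.6 M in the H3K9me2 lists, and came to 26.8 M for EHMT1. The K450RK451R list also went down to a −log10 p of 3.99, whereas the weakest WT peak had 6.57, the weakest K450R peak 5.89 and the weakest K451R peak 5.48. The member peaks of the K450RK451R list had a median pileup, the number of extended reads over the summit, of 9 and at most 13. Scaled to the reads of the WT list this median came to 3.51 and the highest to 5.07, whereas the lowest pileup in that list was 7. By the same scaling 0 of 58 member peaks reached the lowest pileup of the WT list, 1 that of the K450R list and 5 that of the K451R list. At these genes, a lack of V5 in the 3 other lines and a shortfall of reads in their lists therefore cannot be told apart. When the K450RK451R list was held to the lowest −log10 p of the WT list, a cutoff chosen after seeing the data, 36 members (14.5%) and 46 other genes (3.74%) were left.

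Set against the whole genome, it was the other protein-coding genes of chromosome 19 that stood low. The 58 distinct K450RK451R peaks in 9.42 Mb of zinc finger gene territory made 6.16 per Mb (95% Poisson interval 4.68 to 7.96), against 2.06 (1.60 to 2.62) for the 67 peaks in 32.4 Mb of the other chromosome 19 genes. The local background of reads at a called peak went up to 1.76 at the members (ZNF320) and up to 2.89 at these other genes (SIN3B). A higher local background raises the pileup needed for a call, and its part in the difference in density was not tested. The 267 ZNF genes of other chromosomes had 5.50 per Mb (4.41 to 6.76) and the remaining genes of other chromosomes 5.32 (5.20 to 5.44). The density over chromosomes 1 to 22, X and Y was 5.17 per Mb and that over chromosome 19 was 4.34. As shares of genes, 25.5% of the ZNF genes and 26.0% of the remaining genes on other chromosomes had a peak, so the members lay below both in share and close to both in density. Of the 242 K450RK451R peaks on chromosome 19, 58 lay in member territory, 67 in that of other genes, with 9 in both, and 126 in neither, which made 8.004 per Mb (6.67 to 9.53) of the 15.7 Mb of sequence outside both. Of these 126 peaks, 24 lay in regions where all 3 antibodies had a peak, against 0 of the 58 and 3 of the 67.

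Most of this gap within the chromosome lay in peaks with sequence of Alu, a short interspersed element. Peaks with Alu sequence in the window from 100 bases before to 100 after the summit numbered 35 at the members, 3.72 per Mb (2.59 to 5.17), and 26 at the other chromosome 19 genes, 0.801 per Mb (0.523 to 1.17). The summit itself lay in the Alu match in 31 of the 35 and in all 26. Elsewhere they came to 2.96 per Mb at ZNF genes and 3.05 per Mb at the remaining genes. Peaks without any of the 3 repeat families numbered 14 at the members, 1.49 per Mb (0.813 to 2.49), and 34 at the other genes, 1.05 per Mb (0.726 to 1.46), so these intervals overlap. The other genes did not have less Alu sequence: of windows laid every 2 kb, 34.6% held Alu in their territory and 27.3% in that of the members. The 5′ end of the retrotransposon L1 was in the windows of 3 member peaks and SVA, a composite element of hominoid genomes, in those of 6 (10.3%, 4.83% to 20.8%), with the summit inside the match in 3 and 4 of them, while 0.231% and 0.440% of the windows laid across the territory held them. Over all peaks of the K450RK451R list the shares were 10.1% for the L1 5′ end and 7.11% for SVA.

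**Figure D1:**
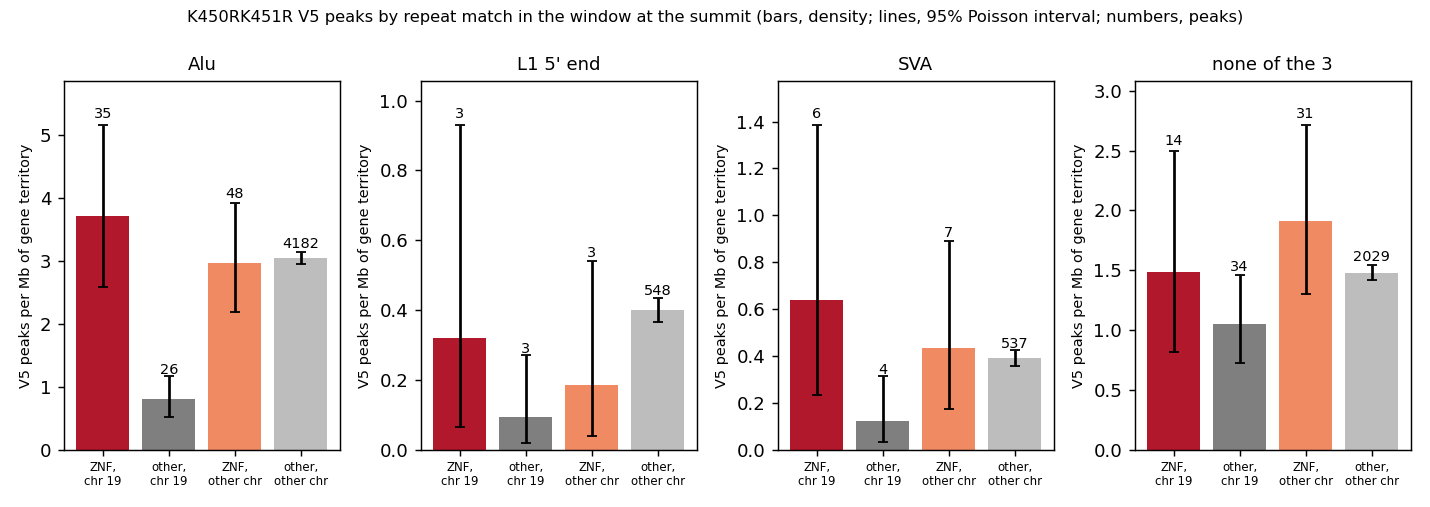
Density of K450RK451R V5 peaks per Mb of gene territory (linear axes from 0, one panel for each repeat class in the window of 100 bases on either side of the summit) in 4 groups of genes. Bars are densities, lines 95% Poisson intervals and the numbers above them peaks, and in the Alu panel the other chromosome 19 genes stand at 0.801 per Mb against 3.72 for the members.

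In all, 44 of the 58 member peaks held one of the repeats, and the Alu share was 60.3% (47.5% to 71.9%) against 38.8% (28.0% to 50.8%) for the 67 peaks of the other genes. On other chromosomes it was 53.9% (43.6% to 63.9%) at ZNF genes and 57.3% at the remaining genes, and over the whole list 50.2%. A high Alu share was thus not particular to the members. The string CTAAAAATA was found in 26 of the 58 windows (44.8%, 32.7% to 57.5%) and in 7.98% of the territory windows. Over the whole list 31.7% of windows held it, and on other chromosomes 32.6% (23.7% to 42.9%) of those at ZNF genes and 35.2% of those at the remaining genes. It is part of the Alu consensus, so these shares are not independent of the Alu count. In 4 member windows (6.90%) no stretch of 51 bases, the length of a read, was unique in the genome, against 7.46% of windows at the other chromosome 19 genes and 16.3% over the whole list, and those of the ZNF419 peak and the ZNF221 promoter peak were among them. Codons of the linker that joins neighbouring fingers, searched as a marker of finger-coding sequence, were in none of the 58 windows, while 2.16% of the territory windows held them. A count of 0 among 58 allows up to 5.17%, so a depletion was not detectable with this number of peaks.

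Peaks at the members were weak, as was most of the K450RK451R list. The median fold enrichment, the pileup plus 1 over the local background plus 1, was 5.09 with a range from 3.80 to 6.97, against a median of 4.93 at the other chromosome 19 genes and 4.89 over all peaks of the list. The median −log10 q was 3.45 with a range from 1.51 to 6.92, against 3.43 and 3.19. Stronger peaks were few at the members. Only ZNF567, ZNF419 and ZNF433 had a peak with −log10 q of at least 5, which is 3 of 58 peaks (5.17%) against 15 of 67 at the other genes (22.4%) and 17.1% of the whole list. The ZNF419 and ZNF433 peaks also lay in the territory of other genes of the chromosome, so both are counted in each group. At that cutoff 1.205% of the members and 1.54% of the other genes had a peak, so the higher share of the members was not seen among the stronger peaks. Within repeats the median −log10 q was 3.50 for members and 3.02 for the other genes. Outside repeats none of 14 member peaks reached 5, whereas 12 of 34 peaks of the other genes did, up to 23.4. That highest peak, in SIN3B, was among the 3 of 67 that lay in regions where all 3 antibodies had a peak. The highest outside such regions was 15.7, at SMIM17.

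**Figure D2:**
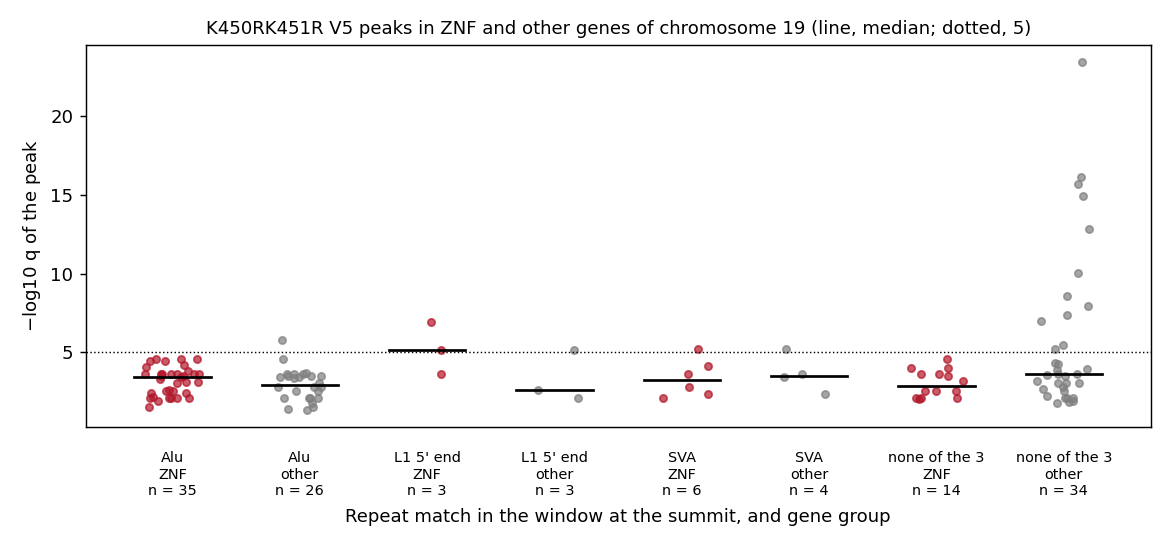
Strength (−log10 q, linear axis) of each K450RK451R V5 peak in ZNF genes and in other genes of chromosome 19, by repeat match in the window of 100 bases on either side of the summit. Circles are peaks, short lines medians and the dotted line marks 5, above which 3 member peaks lie. Other genes reach 23.4 outside the repeats, at a peak in a region where all 3 antibodies had a peak.

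The strongest member peaks were these. ZNF567, which encodes 14 C2H2 fingers, had a pileup of 13 reads over a background of 1.01 in intron 3 of 5, a fold of 6.97 and a −log10 q of 6.92. ZNF419, with 11 fingers, had 12 reads over 1.16 at 4.04 kb upstream of its start, a fold of 6.02 and a −log10 q of 5.20. The ZNF433 peak lay 4.21 kb beyond the 3′ end, close to the limit of 5 kb, with 12 reads, a fold of 5.99 and a −log10 q of 5.16. The ZNF567 and ZNF433 summits were in L1 5′-end sequence. The ZNF419 window held SVA sequence with the summit outside the match, and none of the 3 windows was of the Alu class.

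Below them came a group of near-equal peaks. A single peak with 10 reads, a fold of 5.98 and a −log10 q of 4.59 lay within 5 kb of both ZNF221 and ZNF155, and a second ZNF221 peak and the ZNF530 promoter peak had the same 3 values. ZNF420 followed with a −log10 q of 4.54, then ZNF441 and ZNF846 with 4.45 each and ZNF44 with 4.19. An exact Poisson interval for 10 reads runs from 4.80 to 18.4, so the order among the members of this list is within counting error. In total 41 members had 1 peak and 10 had 2, and 3 peaks were shared by 2 neighbouring members each.

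Promoters were the place where repeats were rare. A summit lay within 1 kb of the transcription start in 9 of 58 peaks (15.5%, 8.38% to 26.9%), while such promoters made up 5.18% of the territory. At the other chromosome 19 genes the promoter share was 13.4% (7.23% to 23.6%), against 7.06% of their territory. Of the 9 promoter peaks 8 held none of the repeats, and the exception was the Alu of ZNF221 at 0.851 kb from the start. The ZNF530 summit fell 0.005 kb upstream of the start, that of ZNF577 0.236 kb, that of ZNF471 0.290 kb and that of ZNF728 0.380 kb downstream of it. Their −log10 q was 4.59, 3.63, 2.55 and 3.52. ZNF470 had 2 promoter peaks, both with a −log10 q of 2.09 and with 21 and 9 CpG dinucleotides in their windows.

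In introns and last exons, unlike at promoters, most peaks held a repeat. All 20 intronic peaks (34.5%, 23.6% to 47.3%) held a repeat, 16 of them an Alu, 3 an SVA and 1 an L1 5′ end, while introns made up 45.7% of the territory. Last exons, which in this family hold the finger array and the 3′ untranslated region, had 5 peaks (8.62%, 3.74% to 18.6%) and 9.62% of the territory. These were in ZNF846 (−log10 q of 4.45), ZNF471 (3.63), ZNF264 (2.43), ZNF790 (2.43) and ZNF555 (2.01), and all 5 summits lay outside the coding sequence. Of the 5 windows 3 held an Alu, 1 an L1 5′ end and 1 none of the repeats. For introns and last exons alike, the share of the territory lay within the interval of the share of peaks. No member peak shared a base with coding sequence of any transcript of these genes, which filled 5.08% of the territory, and the limit for 0 of 58 is 5.17%. The remaining 24 summits were outside the reference transcript, 13 of them still in the gene body as drawn from other transcripts, 4 upstream and 7 downstream.

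**Figure D3:**
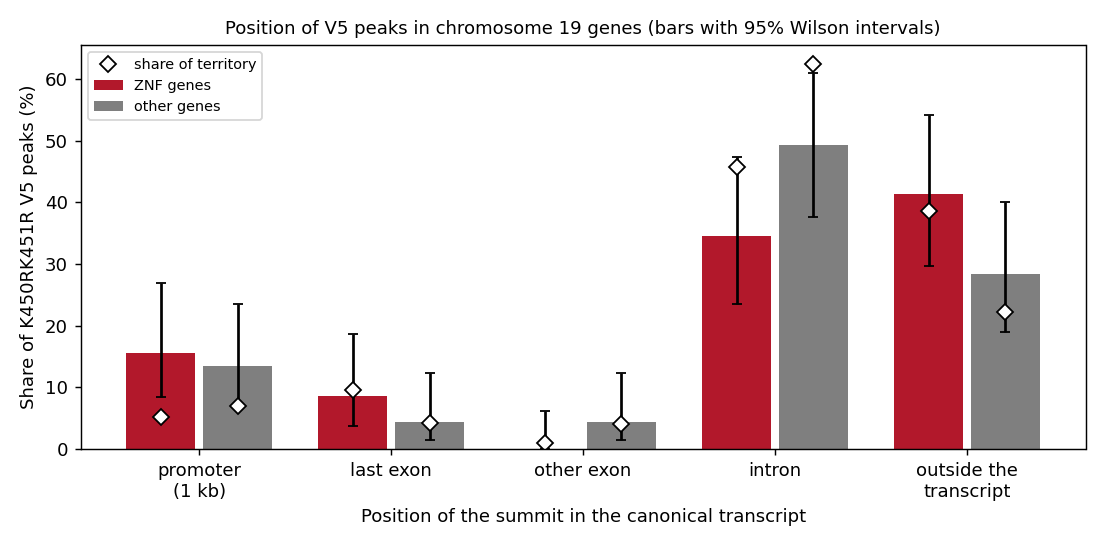
Share of K450RK451R V5 peaks (%, linear axis from 0) by the position of the summit, for 58 peaks in ZNF genes and 67 in other genes of chromosome 19. Bars carry 95% Wilson intervals and diamonds give the share of the territory, and promoters are the class in which 15.5% of member peaks face 5.18% of the territory.

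The last exon is also where ZNF274 is known to act. This zinc finger protein binds the 3′ exons of other zinc finger genes and recruits SETDB1 there. The ZNF274 gene itself had no peak in any of the 9 lists. Among the corepressors and methyltransferases of both pathways, TRIM28, SETDB1, CBX1, CBX3, EHMT2 and WIZ had no peak in any list. CBX5, which encodes the heterochromatin protein HP1α, had 1 K450RK451R peak with a −log10 q of 3.53, ATRX, a chromatin remodeller, 1 with 2.92, ATF7IP, a partner of SETDB1, 1 with 1.51 and ZNF644 1 with 2.09. EHMT1 itself had peaks in 8 of the 9 lists, the best of each list in an intron. Except in the K451R V5 list, this best peak lay in a region where all 3 antibodies had a peak. For comparison, 26.0% of the non-ZNF genes of other chromosomes and 5.85% of those of chromosome 19 had a K450RK451R peak. Of the other 22 C2H2 genes of the chromosome named ZFP, ZIM, ZSCAN, ZBTB, ZIK, KLF or PEG3, 4 had a K450RK451R peak (18.2%, 7.31% to 38.5%), namely ZFP30, ZFP82, ZIM2 and ZSCAN5A, and none had a peak in any other list.

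Members with a K450RK451R peak were spread over the chromosome. On the p arm 20 of 85 had one and on the q arm 31 of 164, with 6.03 and 6.24 peaks per Mb. Within 5 Mb of the centromeric assembly gap the share was higher, 13 of 38 (34.2%, 21.2% to 50.1%) against 38 of 211 (18.01%, 13.4% to 23.8%). The densities were 6.11 (3.49 to 9.93) and 6.18 (4.45 to 8.35) per Mb. When members less than 500 kb apart were joined, 20 clusters resulted. The cluster from ZNF565 to ZNF573 had the most peaks for its size among those of at least 10 members, with 11 of 26 members and 10.4 peaks per Mb. The cluster from ZNF101 to ZNF254, next to the gap on the p arm, had 12 of 37 members and 6.61 per Mb, and the cluster from ZNF264 to ZNF446 near the end of the q arm had 5 of 43 and 4.90 per Mb.

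**Figure D4:**
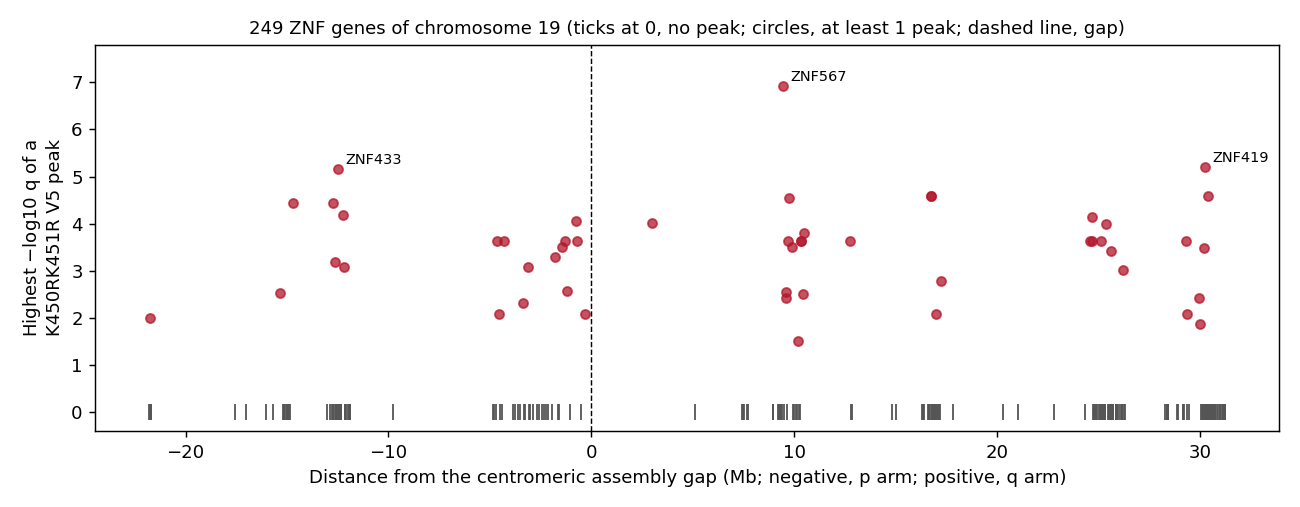
Highest −log10 q of a K450RK451R V5 peak (linear axis) for each of the 249 ZNF genes, by distance from the centromeric assembly gap in Mb, negative on the p arm. Circles are the 51 members with a peak, ticks at 0 the others, and ZNF567, ZNF419 and ZNF433 are the members above 5.

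Gene length moved with the share of members that had a peak. Members with a peak had a median length of 33.3 kb and those without 23.2 kb. The share rose from 1 of 25 members shorter than 10 kb to 8 of 69 from 10 to 20 kb, 24 of 102 from 20 to 40 kb and 18 of 53 above 40 kb. The other chromosome 19 genes had shares of 3.37%, 3.05%, 5.73% and 16.3% in these classes. Below 10 kb the groups could not be told apart, since the member interval, 0.71% to 19.5%, rests on 1 gene and holds 3.37%. Above 10 kb the member intervals were 5.99% to 21.2%, 16.4% to 32.6% and 22.7% to 47.4%. Those of the other genes were 1.66% to 5.52%, 3.5% to 9.23% and 11.8% to 22.1%, and lay below them class by class. Among members with 1 to 9 fingers 3 of 64 had a peak (4.69%, 1.61% to 12.9%), compared with 29 of 108 with 10 to 14 (26.9%, 19.4% to 35.9%) and 19 of 75 with 15 or more (25.3%, 16.9% to 36.2%). Median lengths in these 3 classes were 18.1, 26.7 and 27.1 kb, and the part of length in the difference by finger number was not tested.

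H3K9me2 was not called at the V5 peaks of these genes. None of the 58 K450RK451R peaks overlapped an H3K9me2 peak of the same line, or of any of the 4 lines, and none lay within 1 kb of one, which allows up to 5.17%. The nearest H3K9me2 peak of the K450RK451R line was 0.0748 Mb away and the median distance was 3.81 Mb, that list holding 18 peaks on the chromosome. None of the 58 peaks overlapped a V5 peak of another line or an EHMT1 peak, and none was in a core region, the name used here for the 892 merged regions in which all 3 antibodies had a peak. Of the 67 peaks at other chromosome 19 genes, 1 overlapped an H3K9me2 peak of the same line (1.49%, 0.264% to 7.98%) and 5 one of some line (7.46%, 3.23% to 16.3%). The 3 of the 67 that lay in core regions, which hold an H3K9me2 peak by definition, were among these 5. An EHMT1 peak was overlapped by 10 of the 67 (14.9%, 8.31% to 25.3%). The H3K9me2 list of the K450RK451R line rested on 8.79 M reads, the fewest of the 9 lists, and none of the 58 member pileups, scaled to these reads, reached its lowest pileup of 6. In the H3K9me2 list of the K451R line, which rested on 27.6 M reads, 57 of the 58 scaled pileups reached the lowest pileup of 8, and that list had no peak at these sites either. The scaled pileups are of V5 reads, however, so they do not tell whether H3K9me2 at these sites could have been called in either list.

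ZNF229, which encodes 16 C2H2 fingers, stood apart from every other member. Its 2 EHMT1 peaks lay 2.34 and 3.78 kb beyond its 3′ end, with folds of 7.59 and 7.83 and −log10 q of 13.9 and 15.8. The farther of them overlapped an H3K9me2 peak of the K451R line with a fold of 11.03 and a −log10 q of 30.2, and one of the K450RK451R line with a fold of 7.91 and a −log10 q of 11.4. No V5 list had a peak there. The 2 EHMT1 windows held no repeat of the 3 families, and most of their stretches of 51 bases were unique, 118 and 120 of 151. Their GC content was 38.3% and 41.8%, within the quartiles of the windows laid across the member territory (36.8% to 49.8%, median 43.8%). The K450RK451R windows had a higher median GC content, 58.0% at the members and 58.7% at the other chromosome 19 genes.

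The 5 kb limit cut through a longer row of peaks at this gene. Beyond the 3′ end at 5.94 to 5.97 kb, and so outside the territory, lay a core region with folds of 9.73 in the WT V5 list, 6.42 in the K451R list and 9.95 in the K450RK451R list, 8.42 for EHMT1 and 7.25 to 8.54 in the 4 H3K9me2 lists. The K450R V5 list had none there, and further peaks followed up to 7.25 kb. On the other side, from 6.73 to 9.76 kb upstream of the gene, lay 5 K450RK451R V5 peaks, the strongest with a fold of 7.41 and a −log10 q of 16.4, together with 1 K451R V5 peak and 2 H3K9me2 peaks of the K451R line. With a flank of 10 kb ZNF229 thus had a peak in 8 of the 9 lists, and its neighbour ZNF285 came within 10 kb of the same core region.

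**Figure D5:**
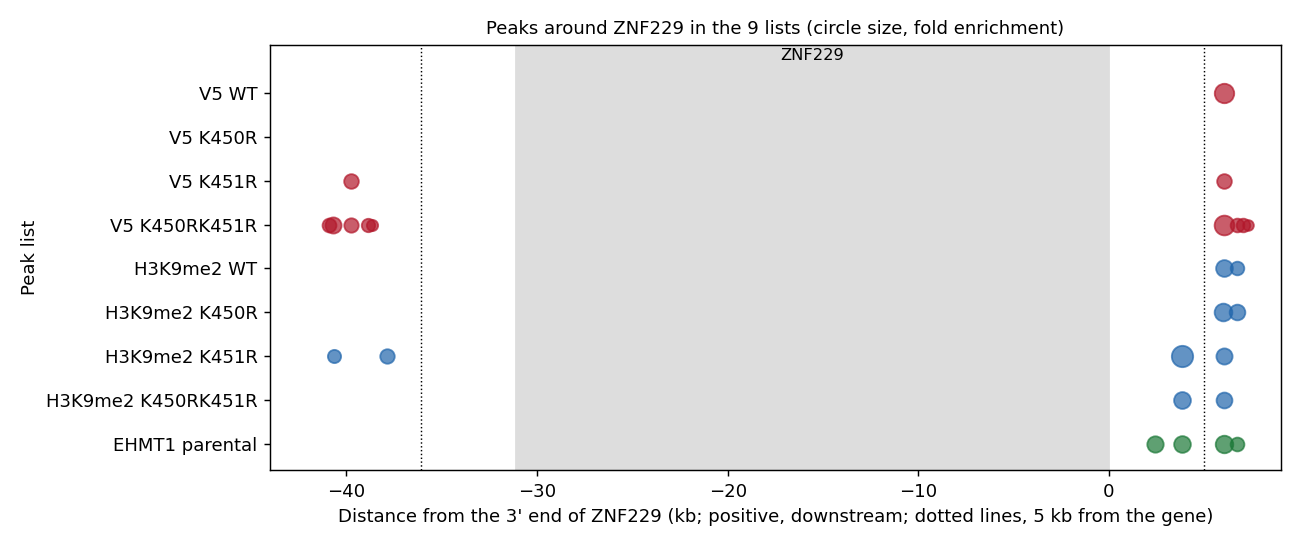
Peaks of the 9 lists around ZNF229 by distance from its 3′ end in kb, positive downstream, with the gene shaded and dotted lines 5 kb from it. Circle size grows with fold enrichment, and most peaks, those of V5 in the WT, K451R and K450RK451R lists included, lie outside the dotted lines, while the EHMT1 and H3K9me2 peaks at 2.34 and 3.78 kb lie inside.

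ZNF536, which encodes a protein expressed in the nervous system, was the only member with V5 peaks in 2 lists. At 489 kb it was the longest of the 249 genes. Its K451R peak, in intron 2, had 8 reads, a fold of 5.59 and a −log10 q of 3.39, with an Alu under the summit. The 2 K450RK451R peaks were 222 and 243 kb from the start, with folds of 5.56 and 5.43 and −log10 q of 4.03 and 3.63. None of these 3 peaks overlapped another.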

How the data were processed

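Per the submitters' processing notes, FastQC 0.11.9, BWA 0.7.9a, SAMtools 1.2 and MACS2 2.1.0 were used with hg19, and the study's methods give single-end reads of 51 nt. The authors deposited 1 narrowPeak list per group with, for each peak, a fold enrichment (the ratio of the summit pileup to the local background, which the values fit with 1 added to each), −log10 p, −log10 q and the summit offset. The members and gene lists used here were chosen with earlier results of these data known.

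Pileup and background were solved from fold and −log10 p for all 22458 peaks, and 500 simulated pileups were recovered. The lowest background of a list with a unique solution, times 2.7 Gb and divided by an assumed read extension of 100 bp, gave the estimated reads. That MACS2 ran without a control and with this extension was inferred from the values. Pileup and depth therefore depend on both assumptions, and a list can rest on 1 replicate.

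Positions follow the canonical transcript of GENCODE version 44 (mapped to hg19; for 3 members without one, the transcript with the longest coding sequence), in the order promoter (1 kb), last exon, other exon, intron and outside. Territory is the merged length of genes with 5 kb on either side. Windows of 201 bp at summits, and tiled every 2 kb, were searched by blastn 2.17.0 (e-value 1e-10) for consensus sequences of Alu, the L1 5′ end and SVA that were written by hand, so older repeats could be missed. SVA was added after the data were seen. The sequences of peaks in repeats are not reported here. Stretches of 51 bases were counted in the genome on both strands, as were linker codons and CTAAAAATA. Fingers were counted from translated coding sequence by spacing of cysteines and histidines, in the frame with most fingers. Shares carry 95% Wilson and densities exact Poisson intervals; limits for 0 take 3 counts. No test was run.

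Genes named are those with peaks in at least 5 lists (none), the 10 with the highest −log10 q of a K450RK451R V5 peak, up to 10 for EHMT1, the 5 best in last exons and at promoters, up to 5 with H3K9me2 outside core regions, ZNF274 and the pathway list. ZNF536, ZNF470, ZNF285, the cluster ends and the other C2H2 genes with a peak were named after their values were seen. Python 3.11.15, numpy 2.4.6, scipy 1.17.1, pysam 0.24.0, numba 0.67.0 and biopython 1.88 were used. Of the alternatives, 23 were listed at the start and 2 were chosen after seeing the data.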

Additional observations from a re-analysis of the deposited data

How the results depend on the processing

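No paired analysis was possible because there is only 1 list for a group, and for the same reason no replicate could be left out. The share of members with a K450RK451R V5 peak (20.5%) fell to 1.205% at −log10 q of at least 5, to 0 at 10 and among the 600 best peaks, to 12.9% at a fold of at least 5, to 8.03% without Alu or L1 windows, and, by the alternatives chosen after seeing the data, to 5.62% without SVA as well and to 14.5% at the −log10 p minimum of the WT list. For the other chromosome 19 genes (5.85%) the same settings gave 1.54%, 0.487%, 0.244%, 3.09%, 3.33%, 3.01% and 3.74%, the gene body alone gave 3.57% and a 10 kb flank 8.04%. The values of the 2 gene groups thus changed order at both −log10 q cutoffs and among the 600 best peaks, but no reversal can be read from so few peaks. At −log10 q of at least 5 the intervals overlap, with 0.411% to 3.48% for members and 0.990% to 2.40% for the other genes. At 10 and among the 600 best peaks, a count of 0 among 249 members allows up to 1.205%. Density at −log10 q of at least 5 was 0.319 per Mb for members and 0.462 for the other genes. For EHMT1, members went to 0 with the gene body alone, in share and density, and to 0 among the 600 best peaks, while the other genes gave 1.30% at −log10 q of at least 10, 1.46% with the gene body alone and 0.325% among the 600 best. The single ZNF229 peaks of H3K9me2 in the K451R and K450RK451R lines were lost (0) with the gene body alone. The ZNF536 peak of the K451R V5 list was lost (0) at both −log10 q cutoffs, among the 600 best peaks, without genes near the gap, and without Alu or L1, with or without SVA. With all transcripts, 51.7% of member peaks were intronic and 17.2% outside. At −log10 q of at least 5 only 3 member peaks were left, so position and sequence shares rest on 3 peaks: promoter 0, last exon 0, outside 66.7%, Alu 0, L1 66.7%, SVA 33.3% and no repeat 0. The H3K9me2 share of V5 peaks at the other genes went to 0 without core regions in the WT, K450R and K451R lists, which then held 1 to 3 peaks. Of the 275 values recomputed, those of named genes aside, 225 stayed within the 95% interval of the reported value, and of 233 values for named genes 151 kept their number of lists. The cause of these changes was not tested beyond the construction of each setting.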
